A study of Homo sapiens with 6 samples.

Results

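Complement is a protein cascade of innate immunity in which proteases cut one another in sequence and place fragments of C3 on a target surface. The classical pathway starts with the C1 complex, in which C1r cleaves C1s and C1s then cleaves C4 and C2. The alternative pathway is amplified by factor B bound to C3 fragments. Host cells are protected by soluble inhibitors such as C1 inhibitor and factor I, and by the membrane proteins CD46, CD55 and CD59. The liver supplies most plasma complement, and kidney tubule epithelium is a known local source of C3.

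The expression of 9 genes of this system was examined: the components C1R, C1S, C3 and CFB, the soluble regulators CFI and SERPING1, and the membrane regulators CD46, CD55 and CD59. They were chosen by name, with earlier results of these data known, and all 9 were found among the 61541 genes of the count files. RNA came from RCC4, an established human line of clear cell renal cell carcinoma, with 3 untreated libraries and 3 from cells given interferon gamma (IFNg) at 1000 U/mL together with TNF at 25 ng/mL for 24 h. Each biological replicate pooled 3 flasks, and no vehicle or single-cytokine arm was analysed here, so the cytokines cannot be told apart. Native poly(A) RNA was read on nanopores, 1 library per flow cell.

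Libraries held from 3626000 to 4406296 counts. Levels are in CPM, which relates counts to library size after TMM correction, and a count of 3, the limit that a count of 0 allows, stood for 0.674 to 0.862 CPM, covering counting error alone. All 9 epithelial and renal carcinoma markers examined were detected, and their sum was 6223 to 7773 CPM in untreated and 8492 to 11600 CPM in treated libraries. Of the 9, VIM was called higher (log2 fold change 0.66, edgeR adjusted p 0.0273), PAX8 lower (-0.79, edgeR adjusted p 0.0316), and 7, among them CA9 and KRT18, neither. VIM made up most of the sum, with means of 4594 CPM in untreated and 7279 CPM in treated libraries. The median log2 fold change of the 9 was -0.015. Of 4 endothelial markers none had a read, of 4 hepatocyte markers only APOA1 did (summed level at most 0.515 CPM in any library), and leukocyte markers summed to at most 0.260 CPM in untreated and from 0.284 to 0.674 CPM in treated libraries, with PTPRC, LYZ and CD3E at 0. Of the 5 fibroblast and pericyte markers COL1A2 and DCN were at 0, and the sum of the 5 was 63.6 to 78.4 CPM in untreated and 30.4 to 53.5 CPM in treated libraries, with PDGFRB called lower (-1.91, edgeR adjusted p 0.00491). The part of these marker changes in the results was not tested. Untreated replicate 3 stood apart from the other untreated libraries, with a score of -49.5 on the second principal component against 35.3 and 7.3, and results that move without it are given both ways.

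Among the 9 genes, those of C1r, C1s, C3 and C1 inhibitor rose with the cytokines, those of the 3 membrane regulators did not pass the test, and CFB and CFI had 0 counts in every library. The 7 genes with counts were the 7 that passed the filter on low counts, and 4 of them were called higher, none lower. Over all 10067 genes tested, 5.58% were called higher and 2.55% lower at an adjusted p under 0.05 in edgeR. C1R, C1S and SERPING1 had so few untreated reads that they entered the test through the treated libraries. The fits of C1R, C1S and SERPING1, and the count of 4, are therefore descriptions. In these 4 genes the groups did not overlap, with all treated libraries above all untreated ones, as in 13.9% of all genes tested. Because these are bulk cultures, more expressing cells and more RNA per expressing cell cannot be told apart.

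**Figure D1:**
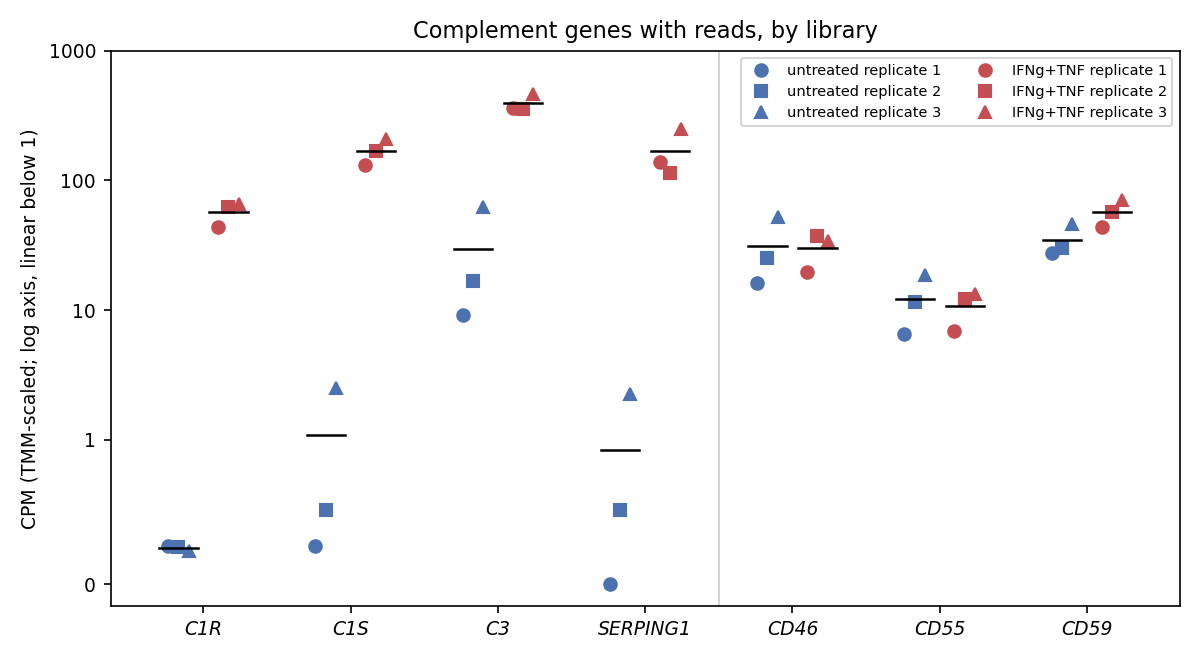
CPM of the 7 genes with counts in each of the 6 libraries (points; blue, untreated; red, IFNg and TNF; marker shape, replicate number) on a log axis that is linear below 1, with black bars for group means. The treated points of C1R, C1S, C3 and SERPING1 all sit above the untreated ones, while those of CD46, CD55 and CD59 overlap with them.

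C1R encodes the protease C1r, which activates itself within C1 and then cleaves C1s (ENSG00000159403; GRCh38 chromosome 12, 7080214 to 7092540, minus strand). It had 1 count in each untreated library, and 153, 279 and 231 counts in treated replicates 1, 2 and 3. In CPM this was 0.260, 0.257 and 0.227 without cytokines and 44.0, 62.7 and 65.6 with them. Untreated cells were thus at the detection limit in all replicates, and the lowest treated library was 168.8-fold above the highest untreated one. The ratio of summed levels was 234.2, with a counting interval (exact, 95%) of 79.8 to 1139, since only 3 untreated reads support it. The edgeR log2 fold change was 7.69 (SE 0.38) with an adjusted p of 6.43e-06, ranking it 41st by fitted fold change among the genes tested. These values are descriptive, since C1R entered the test through the treated libraries.

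C1S lies next to C1R on the opposite strand and encodes C1s, the protease that cleaves C4 and C2 (ENSG00000182326; chromosome 12, 6988259 to 7071032, plus strand). Its counts were 1, 2 and 11 in untreated replicates, or 0.260, 0.515 and 2.49 CPM. Treated replicates held 456, 748 and 740 counts, or 131.1, 168.0 and 210.0 CPM. Most of the untreated reads of C1S came from replicate 3, yet the lowest treated library stood 52.6-fold above it. The group means were 1.09 ± 1.22 and 169.7 ± 39.5 CPM (SD, n = 3 each). EdgeR estimated a log2 difference of 7.18 (SE 0.50; adjusted p 3.66e-05). Without untreated replicate 3 the fitted value was 8.65, resting on the 3 remaining untreated reads.

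The proteins of C1R and C1S act as partners, and the split of reads between their genes needs no library scaling. Reads touching other genes may be uncounted: 11.6% of C1R exonic bases lie in C1RL exons and 3.58% of C1S bases in EMG1 exons. Whether such loss shaped the split was not tested. C1R took 25.1%, 27.2% and 23.8% of the joint counts in treated replicates 1, 2 and 3, with exact binomial 95% intervals of 21.7% to 28.8%, 24.5% to 30.0% and 21.1% to 26.6%. The 3 intervals overlap, and the mean share was 25.4% ± 1.70 (SD, n = 3). In untreated libraries the joint counts were 2, 3 and 12, too few to give a share: the interval for replicate 3 ran from 0.211% to 38.5%.

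Promoter windows of RefSeq (GRCh38.p14, 250 bases before to 50 after each annotated start) were found for 6 of the 9 genes, and for C1S, C3 and SERPING1 none was used. The 11 windows of the 6 genes were searched on both strands for the gamma-activated site (TTCNNNGAA, its own reverse complement as a pattern), for the core of the interferon-stimulated response element (GAAANNGAAA) and for the kappaB motif of NF-kappaB. Of all 35116 windows in the table, 7.66% held the first, 3.57% the second and 11.3% the third. One of the 2 C1R windows held a gamma-activated site, 86 to 78 bases before its start, and the other held none of the 3. The 250 bases before that start are shown because C1R rose, with the match in capitals (chr12:7091894-7092143, minus strand):

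C1R: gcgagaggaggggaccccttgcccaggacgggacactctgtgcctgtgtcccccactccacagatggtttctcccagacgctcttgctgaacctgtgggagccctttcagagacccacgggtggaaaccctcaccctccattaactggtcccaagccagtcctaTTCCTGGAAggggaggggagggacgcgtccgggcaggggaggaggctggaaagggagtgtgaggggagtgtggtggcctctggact

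No motif was found in the windows of CD46, CD55 and CFI, which says only that these letters are absent there. CD59, which did not pass the test, held a gamma-activated site in 2 overlapping windows, and CFB, which had no counts, held all 3 motifs. A match is not a measured binding site.

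C3 is the central component, cleaved in every pathway (ENSG00000125730; chromosome 19, 6677704 to 6730562, minus strand). Of the 4 genes that rose it was the one with clear untreated expression, at 35, 65 and 277 counts, or 9.12, 16.7 and 62.8 CPM. Treated replicates held 1252, 1593 and 1634 counts, or 359.8, 357.8 and 463.8 CPM. The untreated libraries spread widely, with replicate 3 far above the other 2, and the treated ones were close together. The lowest treated library was 5.70-fold above untreated replicate 3. Means were 29.5 ± 29.03 and 393.8 ± 60.6 CPM (SD, n = 3 each). EdgeR estimated a log2 difference of 3.72 (SE 0.60; adjusted p 0.00507). Without untreated replicate 3 the log2 fold change was 4.92, edgeR adjusted p 5.4e-07.

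CFB encodes factor B, the protease of the alternative pathway convertase (ENSG00000243649; chromosome 6, 31945650 to 31952084, plus strand), and had 0 counts in all 6 libraries. Its exons overlap those of ENSG00000244255, a protein-coding gene that spans C2 and CFB on the same strand and also had 0 counts in every library. In all, 48.0% of the exonic bases of CFB lay in exons of another same-strand gene, and counted from its 3′ end only 36 exonic bases came before the first such base. FeatureCounts by default discards reads that fall on exons of several genes, and native RNA reads begin at the 3′ end. The 0 therefore sets no limit on CFB RNA, and whether reads were lost in this way was not tested.

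The 250 bases before the RefSeq start of CFB are shown because all 3 motifs were found there (chr6:31945845-31946094, plus strand). Capitals mark, in order, the interferon-stimulated response element core on the reverse strand (140 to 131 bases before the start), the kappaB motif (112 to 103) and the gamma-activated site (92 to 84), none of which overlap:

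CFB: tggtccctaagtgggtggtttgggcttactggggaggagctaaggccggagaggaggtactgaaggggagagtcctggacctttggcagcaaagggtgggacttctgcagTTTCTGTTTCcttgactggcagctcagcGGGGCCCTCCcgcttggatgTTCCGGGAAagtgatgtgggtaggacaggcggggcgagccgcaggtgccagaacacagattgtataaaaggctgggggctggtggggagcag

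**Figure D2:**
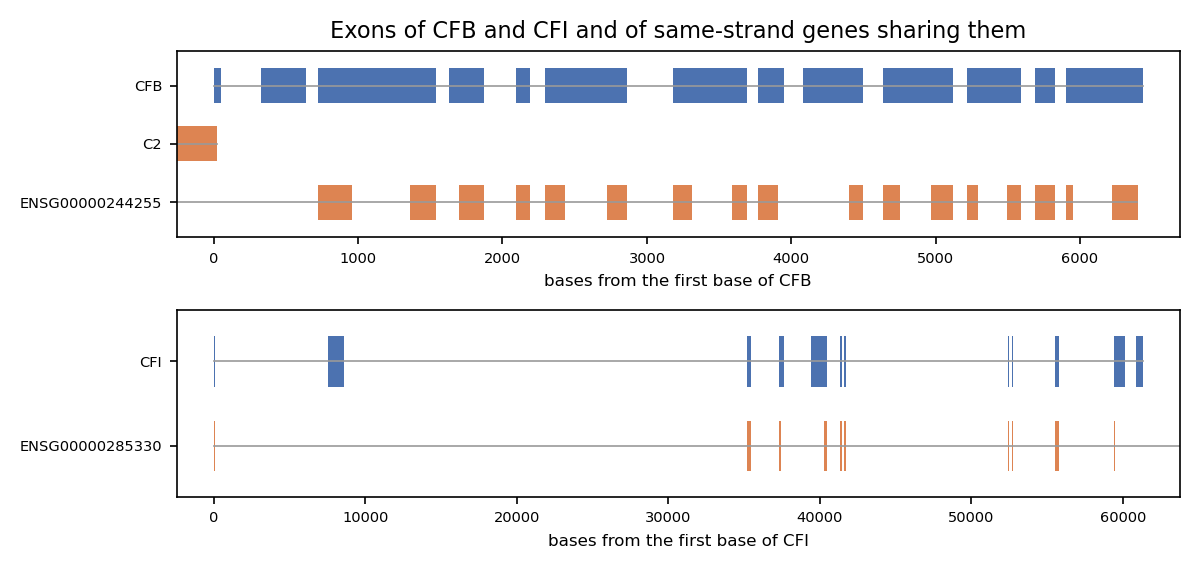
Exons (boxes) of CFB and of CFI, in blue, and of same-strand genes that share exonic bases with them, in orange, plotted by distance in bases from the first base of each gene; genes reaching beyond the panel are clipped. An exon of ENSG00000244255 covers the end of the last CFB exon up to its final bases. In CFI the last 1032 exonic bases are free of other genes, and several exons before them are shared with ENSG00000285330.

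SERPING1 encodes C1 inhibitor, the serpin that inactivates C1r and C1s (ENSG00000149131; chromosome 11, 57597387 to 57619171, plus strand). Untreated replicates held 0, 2 and 10 counts, or 0, 0.515 and 2.27 CPM. With cytokines there were 481, 507 and 884 counts, or 138.2, 113.9 and 250.9 CPM. Treated replicate 3 was the highest, and even the lowest treated library was 50.3-fold above untreated replicate 3. Means were 0.927 ± 1.19 and 167.7 ± 73.1 CPM (SD, n = 3 each). EdgeR estimated a log2 difference of 7.37 (SE 0.64; adjusted p 0.000131). Dropping untreated replicate 3 gave a fitted value of 9.17 on 2 untreated reads. The inhibitor gene thus rose alongside both genes of its target proteases, and no test of their joint change was made because the genes were chosen together.

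CFI encodes factor I, the protease that inactivates C3b and C4b together with cofactors (ENSG00000205403; chromosome 4, 109740694 to 109801999, minus strand), and it too had 0 counts throughout. Another same-strand gene, ENSG00000285330, covered 33.3% of its exonic bases and had 0 counts itself. For CFI the 1032 exonic bases nearest the 3′ end were free of other genes, so reads confined to them could have been counted. For such reads, 0 counts allow a level up to the limit of each library, 0.674 to 0.862 CPM.

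The 3 membrane regulators were expressed in all 6 libraries, and for each the groups overlapped. CD46, a cofactor for factor I (ENSG00000117335; chromosome 1, 207752054 to 207795513, plus strand), had 16.2, 25.5 and 52.4 CPM in untreated and 19.8, 37.1 and 34.4 CPM in treated replicates. Its log2 fold change was -0.04, with an approximate 95% interval of -0.99 to 0.90 and an edgeR adjusted p of 0.977. The highest of the 6 libraries was untreated replicate 3, and without it the value was 0.54 (edgeR adjusted p 0.30). A change of nearly 2-fold in either direction lies inside the interval for CD46, so no statement that it was stable can be made.

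CD55, which speeds the decay of C3 convertases (ENSG00000196352; chromosome 1, 207321532 to 207386804, plus strand), had 6.51, 11.6 and 18.8 CPM without cytokines and 6.90, 12.1 and 13.3 CPM with them. The log2 fold change was -0.19 (interval -1.13 to 0.74, edgeR adjusted p 0.885) and became 0.25 without untreated replicate 3. The treated libraries lay within the untreated range, and replicate 1 was the lowest in each group.

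CD59, the inhibitor of the membrane attack complex (ENSG00000085063; chromosome 11, 33703010 to 33736479, minus strand), had 27.4, 30.1 and 46.5 CPM in untreated and 44.0, 57.3 and 70.4 CPM in treated replicates. The only overlap was between untreated replicate 3 and treated replicate 1. Means were 34.6 ± 10.3 and 57.2 ± 13.2 CPM (SD, n = 3 each), and the log2 fold change of 0.72 (SE 0.27, interval 0.12 to 1.32) did not pass the threshold over all genes (edgeR adjusted p 0.165). Without untreated replicate 3 it was 0.99 and passed (edgeR adjusted p 0.021). CD59 was above 0 in all 13 other fits, from 0.55 to 0.99, and past the threshold in 2 of them.

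**Figure D3:**
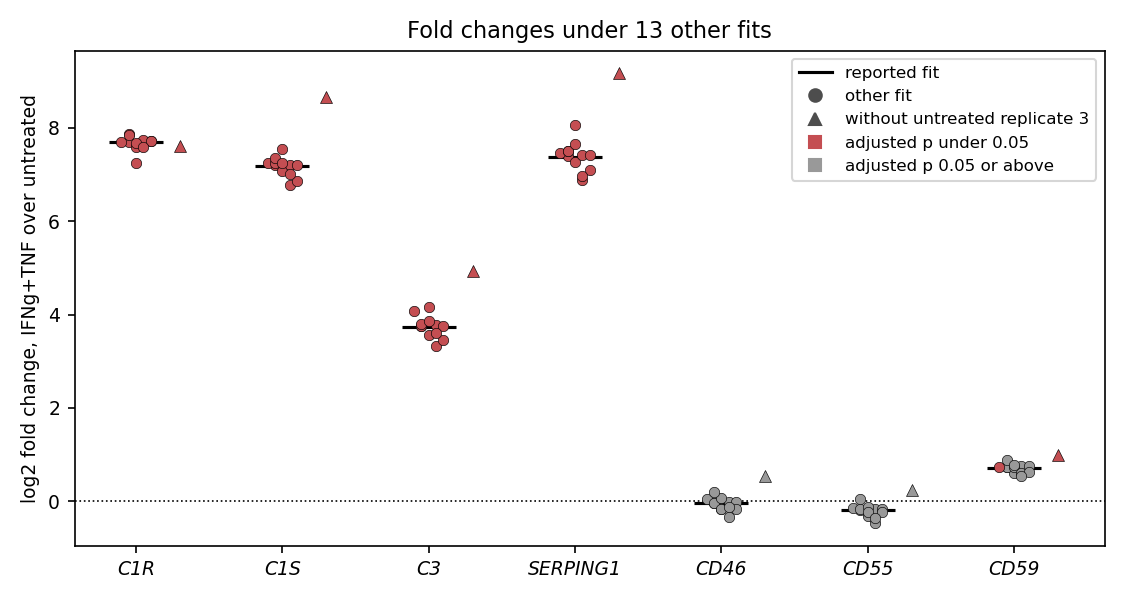
Log2 fold change of each of the 7 genes in the reported fit (black bar) and in 13 other fits (points; triangles, without untreated replicate 3; red, edgeR, DESeq2 or limma adjusted p under 0.05; grey, 0.05 or above). C1R, C1S, C3 and SERPING1 stay red in all 13, CD46 and CD55 cross 0 without ever passing, and CD59 passes in 2.

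Summed by role, C1R, C1S, C3 and CFB went from 9.64, 17.5 and 65.5 CPM to 534.8, 588.6 and 739.4 CPM, a ratio of means of 20.1, or 45.8 without untreated replicate 3. The sum of CD46, CD55 and CD59 was 50.02, 67.2 and 117.6 CPM in untreated and 70.7, 106.5 and 118.1 CPM in treated libraries, a ratio of 1.26, or 1.68 without untreated replicate 3. For the components the treated libraries were all above the untreated ones, whereas for the membrane regulators the highest untreated library nearly reached the highest treated one. Library order was shared by most of the 7 genes: untreated replicate 3 was the highest untreated library for 6 of them, as for 45.4% of all genes tested, and treated replicate 3 the highest treated one for 6, as for 27.3%. The part of this shared order in the results was not tested beyond the fits without each library.

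The other complement genes were read from a list of 53 genes in all, 44 of them outside the 9. Of the 44, 24 had 0 counts in all 6 libraries and 7 were tested. EdgeR called 0 of the 7 higher and 0 lower after adjustment, and DESeq2 and limma voom also called 0 in either direction. Before adjustment, C1RL and CLU had edgeR p of 0.0223 and 0.0286. The share of all genes at such unadjusted values was not taken, so nothing is read from them. The median log2 fold change of the 7 was 0.038, beside -0.03 over all genes tested.

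C1RL, a C1r-like protease gene beside C1R on the same strand, had 13.03, 10.0 and 21.5 CPM in untreated and 21.0, 25.6 and 42.3 CPM in treated replicates (log2 fold change 0.99, SE 0.36, edgeR adjusted p 0.156). It passed in 3 of the 13 other fits: without untreated replicate 3 (1.35, edgeR adjusted p 0.0228), with the replicate number as a block (0.00389) and with no filter beyond 1 read in any library (0.0125). All of the last 500 exonic bases of C1RL lie in C1R exons, 672 bases in all, so reads there could have been left uncounted for both. CLU, encoding clusterin, an inhibitor of the terminal pathway, stood at 14.1 ± 5.63 and 26.8 ± 9.81 CPM (SD, n = 3 each; log2 fold change 0.92, edgeR adjusted p 0.182). CLU passed in the same 3 fits, with edgeR adjusted p of 0.0246, 0.0071 and 0.0299. The membrane proteins encoded by THBD and SUSD4, the receptor genes ITGB2 and C1QBP, and C4BPB, a chain of the C4b-binding protein, had log2 fold changes from -0.76 (SUSD4) to 0.55 (ITGB2), with edgeR adjusted p from 0.31 to 0.971. The groups did not overlap for SUSD4, with treated libraries lower, as in 12% of all genes tested, nor for ITGB2, with treated libraries higher, as in 13.9%.

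Counts for the substrates of C1s were near the detection limit. C4B had 0 counts in all untreated libraries and 7, 9 and 10 after cytokines, at least 3.08-fold higher against a level of 3 counts per library, and C4A had 0 and then 4, 4 and 2. C4A and C4B are near-identical copies, so the split between them is uncertain. Counting of reads mapping to several places was not enabled, so reads of both could also have been lost, which was not tested. C2 had 0, 2 and 0 against 0, 1 and 4 counts. Of its exonic bases 33.4% lie in exons of ENSG00000244255 or CFB on the same strand. Reads of C2 could therefore have been left uncounted, which was not tested. The chains of C1q (C1QA, C1QB, C1QC), the lectin pathway proteases MASP1 and MASP2, and properdin (CFP) had 0 counts in every library. For CFP all of the last 500 exonic bases lie in exons of another same-strand gene. The terminal components C6, C7, C8A and C9 had none either.

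**Figure D4:**
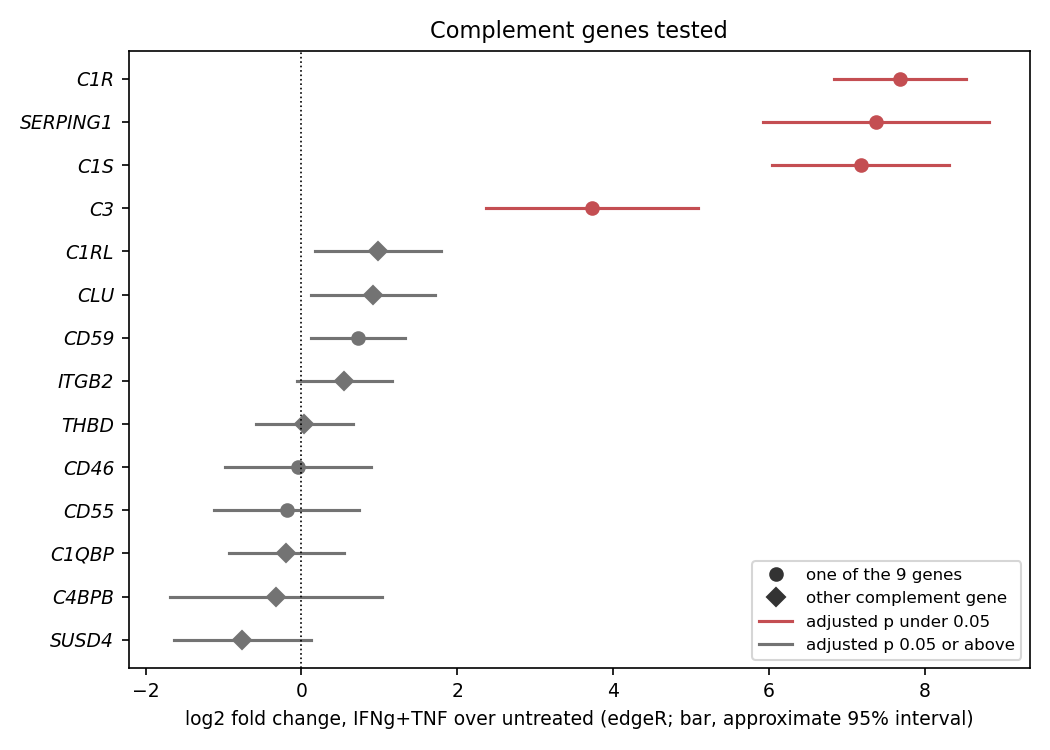
EdgeR log2 fold changes (points; circles, the 9 genes examined; diamonds, other complement genes) with approximate 95% intervals (bars) for the 14 genes of the complement list that were tested, treated over untreated; red marks an adjusted p under 0.05. C1R, SERPING1, C1S and C3 lie between 3.72 and 7.69, and the other 10 between -0.76 and 0.99.

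Genomic neighbours were examined because some of the 9 genes, such as C1R and C1S, lie beside other complement genes. Of 112 other genes within 100 kb of any of them, 33 were tested, 3 were called higher and none lower, beside 5.58% and 2.55% of all genes tested, so nothing is read from the count. The 3 were UBE2L6 beside SERPING1, MCUB beside CFI, and ENSG00000276980 inside C3, the last not called in 3 of the 13 other fits. UBE2L6, the conjugating enzyme for ISG15 (chromosome 11, 57551656 to 57568284), went from 256, 259 and 401 to 4399, 4656 and 3919 counts (log2 fold change 3.93, edgeR adjusted p 6.43e-06). MCUB, a subunit of the mitochondrial calcium uniporter, had a log2 fold change of 1.74 (edgeR adjusted p 0.00119), although CFI itself had 0 counts. Of the 6 tested neighbours of C1R, C1S was the one called. The others had log2 fold changes from -0.18 (PEX5) to 0.99 (C1RL), with edgeR adjusted p from 0.156 (C1RL) to 0.967 (EMG1). Around CFB 7 genes were tested and none was called, and around CD46 and CD55 no neighbour passed the filter.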

How the data were processed

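The files hold read counts per gene, deposited without normalisation. Per the file headers, the authors made them with featureCounts 2.0.1 in long-read, strand-specific mode on exons of Ensembl 105 (GRCh38), with neither multi-mapping nor multi-gene reads enabled. The submitters' processing notes list minimap2 2.24, SAMtools 1.16 and featureCounts 2.0.0. Header paths carry the word dmso, which the labels do not explain; groups come from sample titles. The aligner's settings are not given in the sources used here.

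From these counts, genes were filtered with filterByExpr and tested with edgeR 4.0.16 (quasi-likelihood F test, TMM scaling, group as sole term, R 4.3.3), with Benjamini-Hochberg adjustment over all 10067 genes tested and a threshold of 0.05. SE is the absolute log2 fold change over the square root of F, and intervals use the t distribution. Symbols came from a name table holding 61369 of the 61541 identifiers, then GENCODE. Fits were tested on simulated data. DESeq2 1.42.0 and limma 3.58.1 were alternatives. Replicate pairs differed beyond Poisson noise (chi-square over its degrees of freedom, 3.48 to 24.7), so each library counts once. P-values measure the spread between these cultures.

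The members and lists were chosen with earlier results of these data known. Genes were named by rule: the 9 members, other complement genes that were tested, and neighbours within 100 kb past the threshold. Complement genes below the filter, EMG1 and PEX5 were named after their values were seen. RefSeq promoter windows were matched by symbol. Protein sequences were not used here. Some complement genes are not reported here, and counts over the complement list leave them out.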

Additional observations from a re-analysis of the deposited data

How the results depend on the processing

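The fits tried beside the reported one used DESeq2 size factors, library totals, 2 other filters, a replicate block, DESeq2, limma voom, and each library left out. C1R, C1S, C3 and SERPING1 were called higher in all 13. For C1R, C1S and SERPING1, which entered the reported test through the treated libraries, this is a description. The count of 4 of the 9 genes called higher was 5 with the block and without untreated replicate 3, by the addition of CD59. Whether replicate numbers pair the libraries was not settled: same-numbered deviations correlated at 0.651, -0.0037 and 0.374. Untreated replicate 1 correlated best with its own number. Untreated replicate 2 did so with treated replicate 1 (0.249), and untreated replicate 3 with treated replicate 2 (0.413). With 3 libraries per group these correlations cannot decide it. With the block, CD59 had a log2 fold change of 0.74 (edgeR adjusted p 0.0134), CD46 0.055, and 7 genes of the complement list (4 in the reported fit, then also CD59, C1RL and CLU) and 907 and 605 of all genes were called higher and lower. With no filter beyond 1 read in any library these were 9, 849 and 479, with C1RL, CLU, C4A, C4B and C3AR1 added, the last 3 being tested only then. CD46 was 0.072 in limma voom. Leaving out 1 library moved CD46 from -0.33 to 0.54, with 0.19 without treated replicate 1, CD55 from -0.47 to 0.25, with 0.050 without treated replicate 1, and CD59 from 0.55 to 0.99. It moved C1S from 6.77 to 8.65, C3 from 3.34 to 4.92 and SERPING1 from 6.87 to 9.17, each highest without untreated replicate 3. The complement list had from 4 to 7 genes called higher, with 7, the same as with the block, without untreated replicate 3, and all genes from 358 to 733 higher and from 96 to 445 lower; the cause was not tested. Genes with adjusted p far above the threshold changed sign in some fits: C4BPB from -0.71 to 0.12, THBD from -0.12 to 0.29 (-0.056 with library totals), and C1QBP from -0.45 to 0.084, with 0.000689 without treated replicate 3. Scaling to library totals shifted the median of all genes to -0.13 (log2). Depth limits C1R, C1S and SERPING1, whose untreated levels rest on 3 to 14 reads.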

Other observations

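Inside C3, on the same strand but sharing no exonic base with it, lies ENSG00000276980, annotated as a sense intronic gene (chromosome 19, 6716386 to 6717742). Its counts went from 0, 0 and 4 to 11, 35 and 17 with cytokines (log2 fold change 3.91, edgeR adjusted p 0.0216). All 4 untreated reads were in replicate 3, and without that library the fitted value was 7.36 (edgeR adjusted p 0.00199), which depends on the prior count because no untreated read remains. The call was lost without untreated replicate 2, treated replicate 2 or treated replicate 3 (edgeR adjusted p 0.0853, 0.0887 and 0.0726). The library order differed from that of C3, whose highest treated library was replicate 3. Whether these reads are part of unspliced C3 RNA was not tested.

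Among receptors for complement fragments, C3AR1 went from 3, 0 and 3 counts to 3, 5 and 24, so treated replicate 3 held most of its reads. It did not pass the filter. CFD, a complement protease gene also below the filter, went the other way, from 4, 6 and 4 counts to 2, 0 and 0. With no filter beyond 1 read in any library, CFD had a log2 fold change of -2.49 and was not called (edgeR adjusted p 0.170). CD34, a surface gene within 100 kb of CD46 that was picked out after its values were seen, had 1, 0 and 1 against 3, 9 and 8 counts and was not tested either.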
